A study of Mus musculus with 13 samples.

Results

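A set of 9 genes that encode receptors and ligands of the platelet-derived growth factor (PDGF) and fibroblast growth factor (FGF) families was followed through 13 RNA-seq libraries of mouse cells. The genes were taken by symbol from a count matrix of 23211 genes: the PDGF receptors Pdgfra and Pdgfrb, the FGF receptors Fgfr1, Fgfr2 and Fgfr3, the PDGF ligands Pdgfa, Pdgfb and Pdgfc, and the FGF ligand Fgf7. All 9 had at least 1 count. Mice had received implants in the tibia, and cells from the tissue next to the implant were sorted by FACS as lineage-negative and positive for the leptin receptor (LepR), a surface marker of bone marrow stromal cells. Fibrous tissue, labelled PMMA, gave 7 of the libraries, and bone, labelled Pressfit, gave the other 6. Fibrous tissue was paired with PMMA and bone with Pressfit throughout, so tissue and implant cannot be told apart. No strain, age, sex, transgene or drug is given in the labels. They are also silent on whether each library stands for its own animal, so the p-values measure only how far these libraries scatter, which may be technical scatter.

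PDGF ligands are dimers that bind receptor tyrosine kinases on mesenchymal cells. PDGF-A and PDGF-C bind mainly the alpha receptor, and PDGF-B binds both receptors. FGF receptors are tyrosine kinases too and need heparan sulfate to bind most FGFs, and FGF7 acts on a splice form of Fgfr2 found mainly in epithelium. In the skeleton, Pdgfra and Pdgfrb are used as markers of stromal and perivascular cells, Fgfr1 and Fgfr2 are known from osteoblast precursors, and Fgfr3 is known from growth plate chondrocytes. Both families signal through shared adaptors, the ERK cascade and its feedback inhibitors.

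Library names divided the samples further. The name series XY9274 held 4 libraries and L002 held 9. In L002, the names of fibrous 2, 3 and 4 and bone 1 and 2 held the token plus, those of fibrous 5 and bone 3 and 4 held the token Lin, and that of fibrous 1 held neither. Fibrous 6 and 7 and bone 5 and 6 formed XY9274, with the token Pos. The labels do not explain the tokens, so they are used here only as names. Libraries held 16162321 to 44302166 counts. Levels are given as CPM, counts scaled by a library size corrected with TMM factors (normalised CPM), and levels of different genes are compared per kilobase of merged exons (RPKM).

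The label LepR+ did not match Lepr itself in 5 libraries. Lepr, the gene of the sort marker, had 0.469 and 0.739 normalised CPM in the libraries labelled fibrous 1 and 5 and 0.644, 0.602 and 2.42 in those labelled bone 3, 4 and 5, against 46.7 to 804 in the other 8 libraries. The summed level of 10 LepR stroma markers ran from 8.38 to 128 normalised CPM in these 5 libraries. It ran from 28.2 to 11200 over all fibrous libraries and from 8.38 to 1501 over all bone libraries. Erythroid markers (8 of 8 in the matrix, haemoglobins among them) summed to 235600 to 594100 normalised CPM in the Lin-named libraries and 28380 to 76150 in the plus-named ones. In bulk RNA, fewer cells of a type and less RNA per cell cannot be told apart.

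Pdgfrb, the beta receptor (mm10 chromosome 18, 61045150 to 61085061, plus strand), spanned 0.0644 to 209 normalised CPM over the 13 libraries. Fibrous libraries had 0.156 at the lowest, 43.0 at the median and 209 at the highest normalised CPM, and bone libraries had 0.0644, 17.3 and 46.5. Fibrous 2, 3 and 4 were the highest, with 209, 128 and 80.04 normalised CPM, and the groups overlapped because fibrous 1 and 5 lay with the lowest bone libraries. Without the 5 libraries low in Lepr, fibrous libraries began at 42.1 normalised CPM, inside the bone range, whose highest library, bone 6, had 46.5. Pdgfra, the alpha receptor (chromosome 5, 75152292 to 75198215, plus strand), had 0, 11.3 and 52.9 normalised CPM as the lowest, median and highest fibrous values, against 0, 3.64 and 11.9 in bone. It had no count in fibrous 5 and bone 4 and 5 counts in bone 2, and it reached 52.9 and 38.9 normalised CPM only in fibrous 2 and 3. Bone 3 stood out in the opposite way, with 6.89 normalised CPM of Pdgfra from 107 counts beside a single count of Pdgfrb.

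Per kilobase of exon, Pdgfra was lower than Pdgfrb in all 8 libraries with at least 10 counts of each. The ratio of Pdgfra to Pdgfrb level was 0.138, 0.167, 0.0773, 0.218 and 0.132 in fibrous 2, 3, 4, 6 and 7, and 0.0846, 0.198 and 0.139 in bone 1, 5 and 6. These ratios overlapped between the tissues. In the libraries left out of this ratio, fibrous 1 had 151 counts of Pdgfra against 4 of Pdgfrb, and bone 2 had 5 of Pdgfra against 685 of Pdgfrb.

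**Figure D1:**
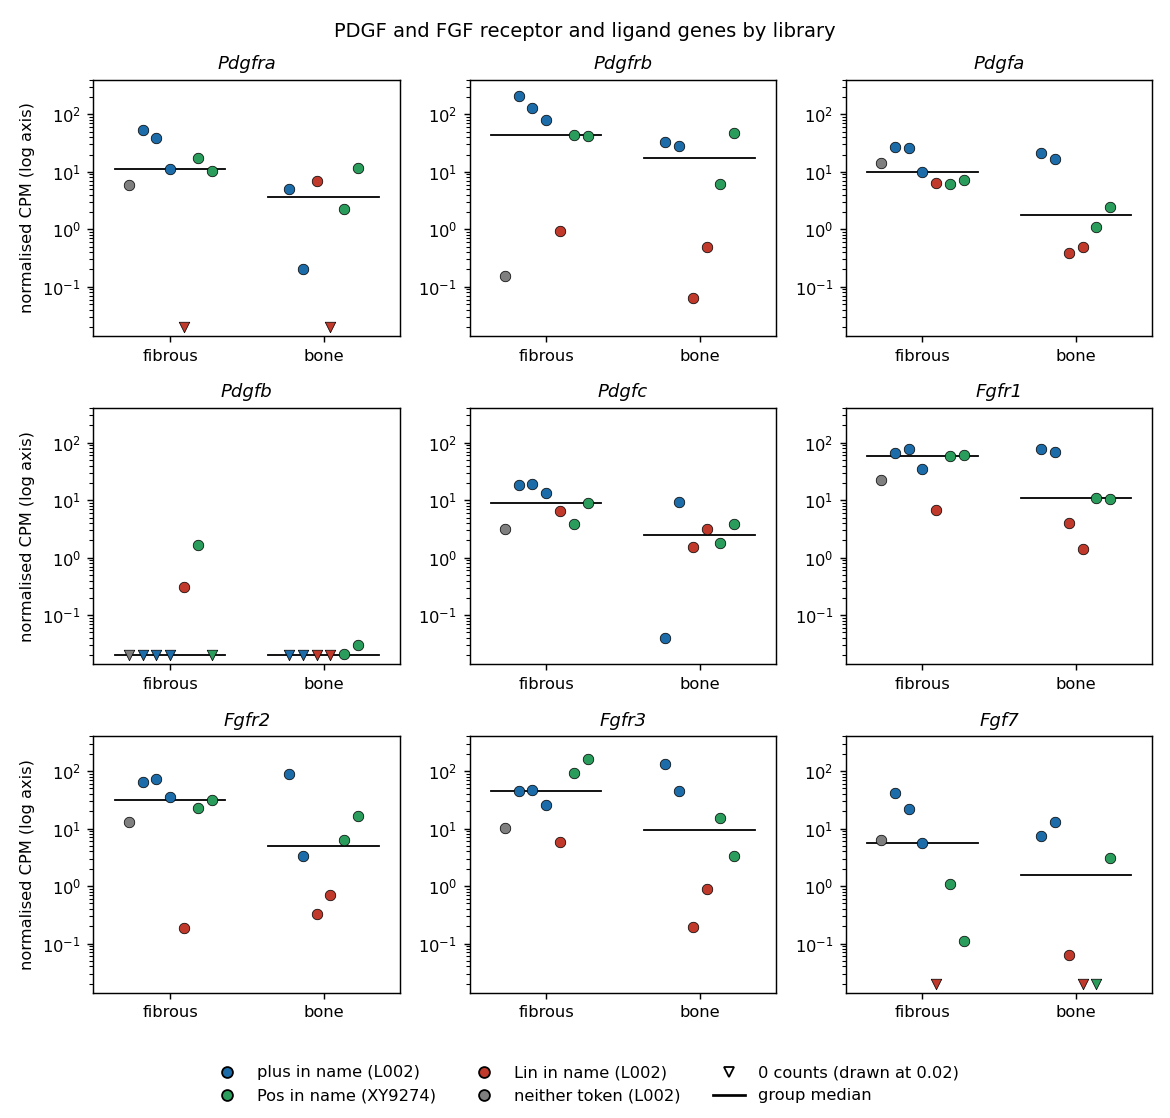
Normalised CPM (log axis) of each of the 9 genes in the 7 fibrous and 6 bone libraries, coloured by the token in the library name, with the group median as a line and libraries at 0 counts drawn as triangles at 0.02. Ranges overlap between fibrous and bone libraries for every gene, and the Lin-named libraries lie at or near the bottom for Pdgfrb, Fgfr2 and Fgf7.

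Fgfr1, the most widely present of the FGF receptors among the 9 genes (chromosome 8, 25513654 to 25575718, plus strand), reached at least 1 normalised CPM in all 13 libraries. Its lowest, median and highest values were 6.65, 59.4 and 76.9 normalised CPM in fibrous libraries and 1.40, 10.7 and 78.8 in bone libraries. Bone 1 and 2 were as high as the highest fibrous libraries, while bone 3 to 6 all lay at or below 10.8 normalised CPM. Fgfr2 (chromosome 7, 130162451 to 133123350, minus strand) had 0.185, 31.1 and 72.4 normalised CPM in fibrous libraries and 0.322, 4.88 and 87.8 in bone. A single bone library, bone 1 at 87.8, was the highest of all 13, while the other 5 bone libraries lay at or below 16.6. The exons of Fgfr2 share 314 bases with Ctbp2 on the same strand, and Ctbp2 itself had 0.903 to 29.4 normalised CPM.

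Fgfr3, a receptor known to restrain growth of cartilage (chromosome 5, 33721674 to 33737068, plus strand), had 5.79, 45.8 and 162 normalised CPM in fibrous libraries and 0.193, 9.36 and 135 in bone libraries. The highest libraries were fibrous 7 at 162, bone 1 at 135 and fibrous 6 at 91.2, so the top places were shared between tissues. The 9 chondrocyte markers, led by Col2a1, summed to 50040, 41060 and 20050 normalised CPM in these 3 libraries, the highest sums of all 13. At the other end, bone 6 had 3.37 normalised CPM of Fgfr3 and a marker sum of 399, and bone 4 had 0.903 and a sum of 401. Bone 3, the lowest of all in Fgfr3 at 0.193, had a higher sum of 1643. Whether chondrocyte content has a part in the Fgfr3 level was not tested.

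The mix of receptors differed from library to library. Of the summed RPKM of the 5 receptors, Pdgfrb made up 60.9%, 48.0% and 55.5% in fibrous 2, 3 and 4, and 66.2% in bone 6. Fgfr3 made up 41.7% and 55.8% in fibrous 6 and 7 and 45.2% and 41.2% in bone 1 and 5. Its share was 48.5% in fibrous 5, where only 220 receptor counts were available. In fibrous 1 the share of Pdgfrb was 0.507% and Fgfr1 led with 41.1%. Pdgfra led in bone 3 alone, with 58.8%, where only 179 receptor counts were available. The 3 FGF receptors stood near 1 to 1 per kilobase in fibrous 2, 3 and 4, where the ratio of Fgfr3 to Fgfr2 level was 1.03, 0.947 and 1.05. That ratio was 5.66 and 7.53 in fibrous 6 and 7, and 2.23, 19.3, 3.48 and 0.292 in bone 1, 2, 5 and 6.

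**Figure D2:**
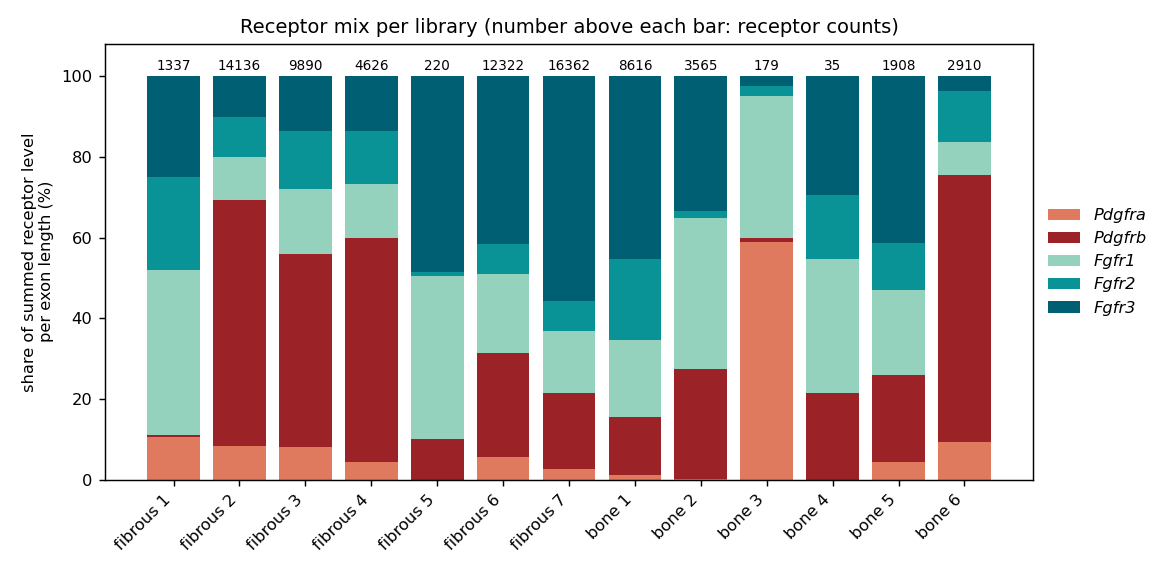
Share (%) of the summed receptor level per exon length taken by each of 5 receptors, with fibrous libraries on the left, bone libraries on the right and the summed receptor counts above each bar. Pdgfrb takes 48.0% to 60.9% in fibrous 2, 3 and 4 and 66.2% in bone 6. Fgfr3 takes 48.5%, 41.7% and 55.8% in fibrous 5, 6 and 7 and 45.2% and 41.2% in bone 1 and 5.

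Among the ligands, Pdgfa (chromosome 5, 138976014 to 138997370, minus strand) had 6.15, 9.74 and 27.3 normalised CPM as its lowest, median and highest fibrous values and 0.387, 1.79 and 20.9 in bone. All fibrous libraries lay at or above 6.15 normalised CPM, and only bone 1 and bone 2, at 20.9 and 16.6, reached into that range. Pdgfc (chromosome 3, 81036416 to 81214040, plus strand) had 3.20, 9.02 and 19.5 normalised CPM in fibrous libraries and 0.0394, 2.50 and 9.49 in bone. Bone 1 had a single Pdgfc count beside 531 counts of Pdgfa, while bone 2 had 229 and 400. Per kilobase, Pdgfa was at or above Pdgfc in all 10 libraries with at least 10 counts of each. The ratios were 1.19 to 7.14 in the 7 fibrous libraries and 1.00 to 2.85 in bone 2, 5 and 6. Bone 3 and 4, with 6 and 5 counts of Pdgfa, went the other way. They had 0.124 and 0.161 RPKM of Pdgfa against 0.304 and 0.631 of Pdgfc. Pdgfa shares 813 exon bases with 6330403L08Rik on the opposite strand, which had 126 counts over all libraries.

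Pdgfb, the ligand known from endothelial cells and megakaryocytes (chromosome 15, 79995874 to 80014977, minus strand), was close to absent from the counts. It had 88 counts in fibrous 6, 5 in fibrous 5 and 1 each in bone 5 and 6, and 0 in the remaining 9 libraries. A count of 0 allows up to 0.0564 to 0.301 normalised CPM in those 9, taken as 3 counts per library. Endothelial markers summed to 17.5 to 64.4 normalised CPM in fibrous libraries and 19.8 to 78.4 in bone libraries, and Cdh5, which defines endothelium, had counts in 3 libraries, 29 in fibrous 6, 6 in bone 4 and 4 in bone 5. Megakaryocyte markers summed to 22.3 to 1468 normalised CPM in fibrous libraries and 23.0 to 405 in bone libraries, with the highest sum in fibrous 5, and their part in the Pdgfb counts was not tested. Pdgfb did not pass the filter on low counts and was not tested in either comparison.

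Fgf7, a mesenchymal ligand known to act on epithelia (chromosome 2, 126034658 to 126091185, plus strand), had 0, 5.72 and 41.0 normalised CPM in fibrous libraries and 0, 1.58 and 13.1 in bone. The highest libraries were fibrous 2 at 41.0, fibrous 3 at 22.0 and bone 2 at 13.1, all plus-named. No count was present in fibrous 5, bone 4 and bone 5, and bone 3 had 1.

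Promoter windows of 4 genes are printed because Fgfr2 and Fgf7 passed the test between plus-named and Lin-named libraries described further on, while Fgfr3 and Pdgfra did not. Each window spans 250 bases before to 50 after a start site, 5′ to 3′ on the gene's strand, from RefSeq on GRCm38.p6. The table matched 6 of the 9 genes, all but Pdgfrb, Pdgfb and Fgfr1. The windows lie at chr7:130266759-130267058 (minus strand, Fgfr2), chr2:126034408-126034707 (plus strand, Fgf7), chr5:33721474-33721773 (plus strand, the first of 2 start sites of Fgfr3) and chr5:75152001-75152300 (plus strand, Pdgfra). Capitals mark matches on either strand to 8 motifs. The letters searched were TGTGGT for RUNX factors, ACAAAG for SOX factors, TGANTCA for AP-1, GTAAACA for FOX factors, TATAAA for the TATA box, CCAAT for the CCAAT box and GGGCGG for the GC box. The EBF motif was searched as TCCC, 2 bases of any kind and GGGA, and no printed match overlaps a match to another motif.
Fgfr2: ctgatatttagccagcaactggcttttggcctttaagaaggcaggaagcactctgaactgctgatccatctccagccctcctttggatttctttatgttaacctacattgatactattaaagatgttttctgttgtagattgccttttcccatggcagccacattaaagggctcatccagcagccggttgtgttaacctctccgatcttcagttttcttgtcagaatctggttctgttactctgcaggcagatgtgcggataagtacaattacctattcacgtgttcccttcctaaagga
Fgf7: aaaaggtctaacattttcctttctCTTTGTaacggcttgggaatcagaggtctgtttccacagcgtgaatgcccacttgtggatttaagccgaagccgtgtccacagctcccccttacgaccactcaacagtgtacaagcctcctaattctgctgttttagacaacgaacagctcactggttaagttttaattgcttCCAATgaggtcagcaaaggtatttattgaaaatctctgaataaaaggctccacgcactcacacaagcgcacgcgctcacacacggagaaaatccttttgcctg
Fgfr3: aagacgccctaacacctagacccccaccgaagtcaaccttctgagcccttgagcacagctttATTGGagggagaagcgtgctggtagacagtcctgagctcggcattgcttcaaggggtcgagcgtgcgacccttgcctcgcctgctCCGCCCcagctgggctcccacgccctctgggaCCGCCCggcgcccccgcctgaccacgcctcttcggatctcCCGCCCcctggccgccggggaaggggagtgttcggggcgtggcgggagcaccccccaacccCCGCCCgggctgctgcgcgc
Pdgfra: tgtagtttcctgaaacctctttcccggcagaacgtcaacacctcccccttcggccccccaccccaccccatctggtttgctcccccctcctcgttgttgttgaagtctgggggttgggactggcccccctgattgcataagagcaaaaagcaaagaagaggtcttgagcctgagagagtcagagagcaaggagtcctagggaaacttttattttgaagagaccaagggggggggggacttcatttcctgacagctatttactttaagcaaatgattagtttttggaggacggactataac
The Fgfr3 window held 4 GC boxes and a CCAAT box, all on the opposite strand, with 69.7% G and C and 26 CpG dinucleotides. Fgf7 held a SOX match on the opposite strand and a CCAAT box 53 bases before the start, with 45.7% G and C and 11 CpG. No match to these letters was present in the Fgfr2 window (43.7% G and C, 4 CpG) or the Pdgfra window (51.0% and 5 CpG). Over all 32851 promoters the median was 52.7% G and C and 7 CpG. A GC box was found in 35.7% of them, CCAAT in 37.4%, the SOX letters in 18.7%, RUNX in 16.8%, TATAAA in 13.6%, AP-1 in 7.81%, FOX in 3.65% and EBF in 0.904%. The Fgfr2 and Fgf7 windows had the lowest share of G and C of the 8 windows of the 6 matched genes, the others holding 51.0% to 73.3%. Their share was below the median of all promoters, as was that of the Pdgfra window. Pdgfrb and Fgfr1, which also passed the test between plus-named and Lin-named libraries, had no window. A link between base content and passing was not tested.

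Between fibrous and bone libraries, the comparison the study was designed for, each of the 8 tested genes was fitted higher in fibrous libraries and none passed the test. The largest fitted differences were for Pdgfra, at a log2 fold change of 2.26 (SE 1.38), Pdgfrb at 1.90 (SE 1.45), Pdgfc at 1.59 (SE 0.87) and Pdgfa at 1.13 (SE 0.85), each with an adjusted p of 0.873. Pdgfrb averaged 71.9 ± 75.2 normalised CPM in fibrous and 19.0 ± 19.5 in bone libraries, and Pdgfra averaged 19.5 ± 19.2 in fibrous and 4.38 ± 4.56 in bone libraries (SD, n = 7 fibrous and 6 bone). The FGF genes lay closer to 0, with log2 fold changes of 0.85 (SE 1.19) for Fgfr2, 0.79 (SE 0.88) for Fgfr1, 0.71 (SE 1.77) for Fgf7 and 0.33 (SE 1.33) for Fgfr3, and adjusted p of 0.913 to 0.975. The SD exceeded the mean for 7 of the 8 genes in bone libraries and for Pdgfrb and Fgf7 in fibrous libraries.

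These counts have to be read against all genes. Of 13294 genes tested with edgeR, 0 passed an adjusted p under 0.05 (0%), and 636 (4.78%) had an unadjusted p under 0.05, none of them one of the 8. DESeq2 called 169 genes (1.3%) and limma voom 0, again with none of the 8. The median log2 fold change was 0.99 over the 8 genes and 0.03 over all genes, of which 51.9% were above 0. No member had fibrous and bone ranges that did not overlap, against 7 genes (0.0527%) that lay wholly above and 2 (0.015%) wholly below in fibrous libraries. A single library moved the Fgfr2 value most: without bone 1 its log2 fold change was 3.44, with an adjusted p of 0.414.

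Each name series was also fitted alone, and several genes of both families had unlike values in them. In XY9274, Fgfr3 had 91.2 and 162 normalised CPM in the fibrous libraries against 15.3 and 3.37 in the bone libraries, a log2 fold change of 3.68 (SE 0.93, adjusted p 1.0). In L002 its log2 fold change was -0.78 (SE 1.35, adjusted p 0.958), with bone 1 and 2 at 135 and 45.4 normalised CPM. Fgfr1 followed the same pattern, with 59.4 and 61.8 normalised CPM in fibrous 6 and 7 against 10.8 and 10.7 in bone 5 and 6 (log2 fold change 2.43, SE 0.32, adjusted p 1.0), and 0.08 (SE 1.06) in L002. The Fgf7 log2 fold change was -1.38 (SE 2.69) in XY9274 and 1.54 (SE 1.81) in L002. Pdgfra had 0.90 (SE 0.97) in XY9274 and 2.78 (SE 1.79) in L002, and Pdgfrb had 0.64 (SE 0.99) and 2.42 (SE 1.88). Fgfr2 was closer between the series, with 1.18 (SE 0.62) in XY9274 and 0.65 (SE 1.61) in L002. The difference between the series was tested as an interaction, and it was 4.51 (SE 2.44) for Fgfr3, 2.40 (SE 1.78) for Fgfr1 and -2.88 (SE 3.53) for Fgf7, each with an adjusted p of 1.0. The interaction was -1.89 (SE 2.78) for Pdgfra, -1.74 (SE 2.98) for Pdgfrb and 0.56 (SE 2.65) for Fgfr2. No gene of 13294 passed that test with edgeR (0%), 292 (2.2%) had an unadjusted p under 0.05, and DESeq2 called 25 (0.192%). Without the Lin-named libraries it was 5.21 (SE 1.29) for Fgfr3 and 3.03 (SE 0.73) for Fgfr1, both with an adjusted p of 0.434. Fgf7 had -2.26 (SE 2.63) in that fit, in which 0 of 14364 genes passed (0%) and 862 (6%) had an unadjusted p under 0.05. In the same XY9274 libraries the chondrocyte markers summed to 20050 and 50040 normalised CPM in fibrous against 6304 and 399 in bone, and their part in the Fgfr3 difference was not tested.

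Without the 5 libraries low in Lepr, which left 5 fibrous and 3 bone libraries, the PDGF receptors and Pdgfc stayed the furthest from 0. The log2 fold change was 2.25 (SE 1.31) for Pdgfra, 1.29 (SE 0.57) for Pdgfrb and 1.47 (SE 1.23) for Pdgfc. It was 0.60 for Pdgfa, 0.49 for Fgfr1, 0.46 for Fgfr2, -0.05 for Fgfr3 and -0.24 for Fgf7. The smallest adjusted p among the 8 was 0.774, and no gene passed the edgeR test (0%).

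**Figure D3:**
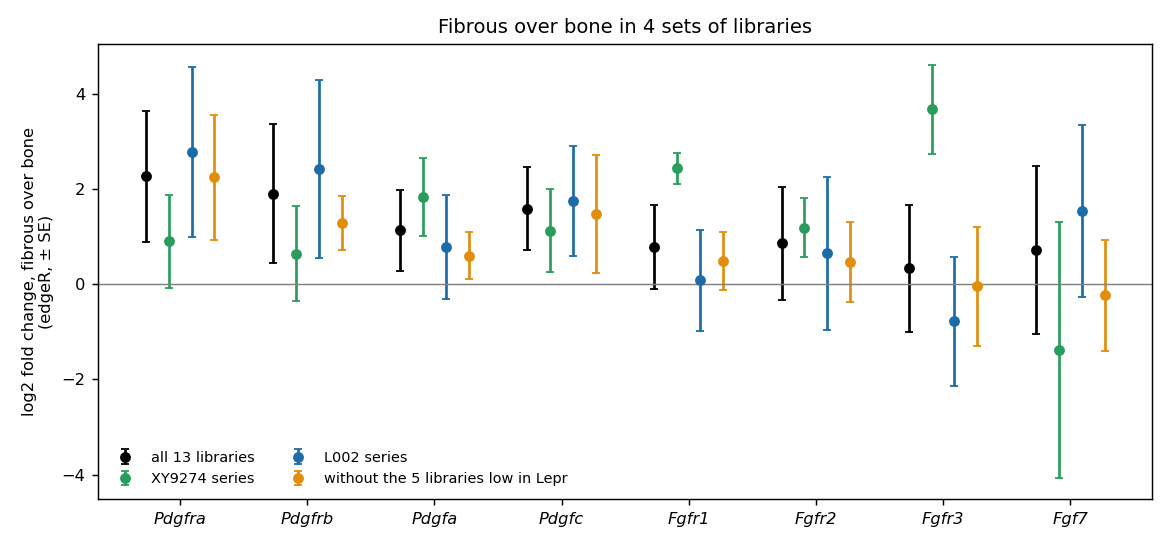
Log2 fold change of fibrous over bone (edgeR, bars ± SE) for the 8 tested genes in all 13 libraries, in each name series alone and without the 5 libraries low in Lepr. Pdgfra, Pdgfrb, Pdgfa, Pdgfc, Fgfr1 and Fgfr2 are above 0 in all 4 sets. Fgfr3 is 3.68 in XY9274 and -0.78 in L002, and Fgf7 is -1.38 in XY9274 and 1.54 in L002.

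The plus-named L002 libraries differed from the Lin-named ones in 4 of the 8 tested genes, all higher in the plus-named libraries. Pdgfrb had 209, 128, 80.04, 32.6 and 28.4 normalised CPM in the plus-named libraries fibrous 2, 3 and 4 and bone 1 and 2, against 0.923, 0.0644 and 0.502 in the Lin-named libraries fibrous 5 and bone 3 and 4. Every plus-named library was above every Lin-named one, and the log2 fold change was 7.10 (SE 0.65, adjusted p 0.0110). Fgfr1 had 65.7, 76.9, 35.4, 78.8 and 70.3 normalised CPM in the plus-named libraries in the same order, against 6.65, 4.06 and 1.40 in the Lin-named ones. Its lowest plus-named library, fibrous 4, was still above all 3 Lin-named libraries (log2 fold change 4.03, SE 0.59, adjusted p 0.0180).

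Fgfr2 had 64.2, 72.4, 35.3, 87.8 and 3.40 normalised CPM in the plus-named libraries, against 0.185, 0.322 and 0.702 in the Lin-named ones. Bone 2, at 3.40, stood far below the other plus-named libraries, and the ranges did not overlap (log2 fold change 7.14, SE 1.31, adjusted p 0.0252). For Fgf7 the plus-named values were 41.0, 22.0, 5.72, 7.29 and 13.1 normalised CPM, against 0, 0.0644 and 0 in the Lin-named libraries, where 1 count was seen in all. The mean of the plus-named libraries was 744 times the pooled Lin-named level, with a 95% counting interval of 134 to 29370, and the adjusted p was 0.0205.

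Fgfr3 and Pdgfa were also higher in every plus-named than in every Lin-named library and did not pass the test. Fgfr3 had 45.8, 47.5, 25.8, 135 and 45.4 normalised CPM in the plus-named libraries, against 5.79, 0.193 and 0.903 in the Lin-named ones (log2 fold change 4.84, SE 1.22, adjusted p 0.0535). Pdgfa had 27.3, 26.3, 9.74, 20.9 and 16.6 normalised CPM against 6.28, 0.387 and 0.502 (3.49, SE 0.97, adjusted p 0.0687). Pdgfc and Pdgfra overlapped between the name groups. Pdgfc had 0.0394 to 19.5 normalised CPM in plus-named and 1.55 to 6.52 in Lin-named libraries (log2 fold change 1.18, SE 1.29, adjusted p 0.596). Pdgfra had 0.207 to 52.9 in plus-named and 0 to 6.89 in Lin-named libraries (1.25, SE 2.76, adjusted p 0.806).

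The background of this comparison was high. Of 13450 genes tested, 1097 (8.16%) passed and 673 (5%) passed as higher in the plus-named libraries, and 1784 (13.3%) had all plus-named libraries above all Lin-named ones, as 6 of the 8 genes did. The median log2 fold change was 4.44 over the 8 genes and 0.21 over all genes. Pdgfrb passed each time a library was left out, with 138 to 992 genes called in all. It was the single one of the 8 to pass without fibrous 3 or without bone 3, when 138 and 144 genes passed. Fgfr1 passed beside it without fibrous 2 (264 genes) or bone 4 (144 genes). Without bone 1, 368 genes passed and Fgfr2 was lost, and without bone 2, 470 genes passed and the same 4 members were among them. Without fibrous 5, Fgfr2 was lost while Pdgfa and Fgfr3 passed. With each library left out, the log2 fold change was 6.72 to 7.57 for Pdgfrb, 3.61 to 4.76 for Fgfr1, 5.35 to 7.82 for Fgfr2, 3.99 to 7.45 for Fgfr3 and 2.88 to 5.40 for Pdgfa. DESeq2 called 6 of the 8 among 3495 genes (27.2%), and limma voom called none of the 8 among 566 (4.21%), with an adjusted p of 0.0584 for Fgfr1 and 0.0613 for Pdgfrb. Bone 2 and bone 4, and fibrous 2 and fibrous 5, share a sample token in their names, so members of such a pair may not be independent.

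The same libraries differed in their marker lists. LepR stroma markers summed to 854 to 11200 normalised CPM in plus-named and 8.38 to 28.2 in Lin-named libraries. For 8 mural markers the sums were 42.3 to 54.2 in plus-named and 0.193 to 4.31 in Lin-named libraries. Among the plus-named libraries Cspg4, which is not particular to mural cells, made up 23.05 to 53.7 of these sums, and all of it in bone 1. Rgs5, which defines mural cells, was at 0 in fibrous 3, fibrous 4 and bone 1 and in all 3 Lin-named libraries. Osteoblast markers summed to 13620 to 50260 in plus-named and 648 to 3728 in Lin-named libraries, chondrocyte markers to 8907 to 41060 in plus-named and 401 to 2004 in Lin-named libraries, and fibroblast markers to 1559 to 6396 in plus-named and 64.7 to 779 in Lin-named libraries. Their part in the receptor differences was not tested. With haemoglobin and immunoglobulin genes taken out before scaling, the same 4 genes passed.

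**Figure D4:**
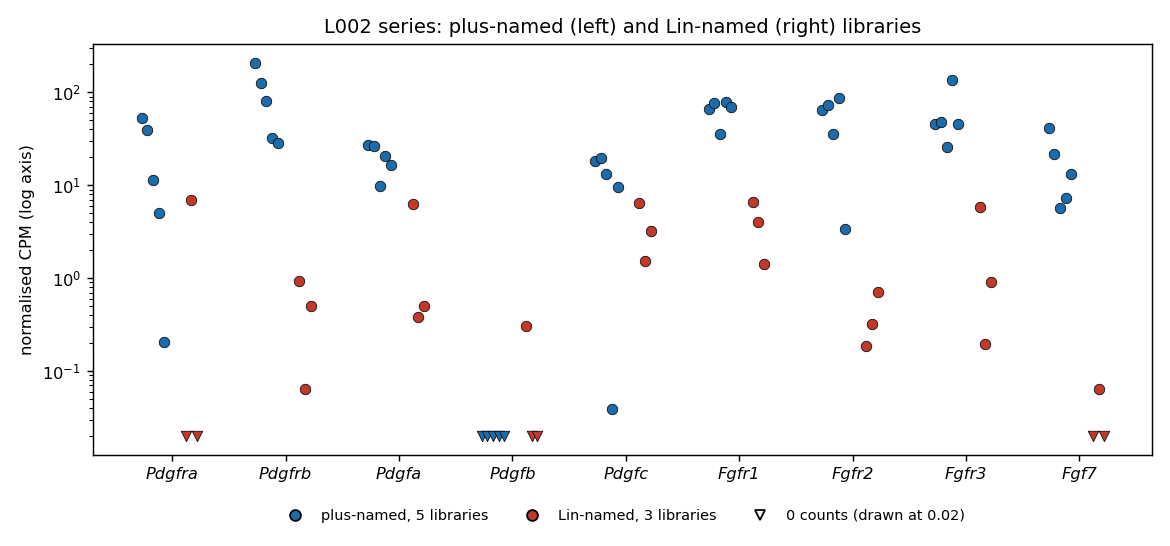
Normalised CPM (log axis) of the 9 genes in the 5 plus-named (left) and 3 Lin-named (right) libraries of the L002 series, with 0 counts drawn as triangles at 0.02. The name groups do not overlap for Pdgfrb, Pdgfa, Fgfr1, Fgfr2, Fgfr3 and Fgf7, and overlap for Pdgfra, Pdgfb and Pdgfc.

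No member passed between the XY9274 and L002 series, in which 287 of 13294 genes did (2.16%). Pdgfa had 1.09 at the lowest and 7.07 at the highest normalised CPM in the 4 XY9274 libraries, against 0.387, 14.02 and 27.3 as the lowest, median and highest of the 9 L002 libraries (log2 fold change -1.82, SE 0.98, adjusted p 0.288). Fgf7 had 0 to 3.09 in XY9274 and 0 to 41.0 in L002 (-2.95, SE 2.10, adjusted p 0.424). The XY9274 range lay inside the L002 range for both ligands, whose lowest L002 values were those of the Lin-named libraries. The other 6 had log2 fold changes between -0.71 for Fgfr2 and 0.78 for Fgfr3. Without the Lin-named libraries, the log2 fold change was -2.33 (SE 0.56, adjusted p 0.0861) for Pdgfa. For Fgf7 it was -3.995 (SE 1.58, adjusted p 0.238) in that fit, in which 203 of 14364 genes passed (1.41%).

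Other genes of the families were described from lists. Pdgfd, a ligand of the beta receptor, was found in all 13 libraries at 2.25 to 44.0 normalised CPM, and Pdgfrl, a receptor-like protein, at 0.301 to 46.6. Neither passed the edgeR test, while DESeq2 called both as higher in plus-named libraries. Pdgfd averaged 30.2 ± 12.1 in plus-named and 7.62 ± 1.57 normalised CPM in Lin-named libraries (SD, n = 5 and 3, log2 fold change 1.98, adjusted p 0.0555). Fgfrl1, an FGF receptor without a kinase domain, had 19.9 to 153 normalised CPM and Fgfr4 had 0 to 11.6, the highest in fibrous 5, and neither passed the edgeR test. Of 21 other genes of the FGF family listed, not all of them receptor ligands, 8 were in the matrix and 3 were tested between name groups. Their highest value in any library was 13.2 normalised CPM, for Fgf13 in fibrous 2, and Fgf2 peaked at 2.48 in fibrous 4.

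Genes that process the ligands, present them or carry the signal were counted in the same fits. In the fibrous to bone comparison, 0 genes of any list passed with edgeR. Between plus-named and Lin-named libraries, 2 of 5 tested PDGF-processing proteases passed as higher, against 5% of all genes. They were the proprotein convertases Pcsk6 and Pcsk5, and the count was 1 without fibrous 2, fibrous 3, bone 3 or bone 4 and 1 with limma voom. Pcsk6 averaged 35.2 ± 14.4 normalised CPM in plus-named and 0.155 ± 0.216 in Lin-named libraries (log2 fold change 8.42, adjusted p 0.0142), and Pcsk5 averaged 38.4 ± 25.9 and 1.46 ± 2.15 in the same order (4.92, adjusted p 0.0216). Plat, which activates PDGF-C, did not pass (14.9 ± 15.7 in plus-named and 1.38 ± 2.27 in Lin-named libraries, adjusted p 0.182).

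Over all genes, 5% passed as higher in plus-named libraries and 3.15% as lower. Among 19 tested genes of heparan sulfate proteoglycans and their enzymes, 4 passed as higher and 0 as lower. They were the syndecans Sdc2 (152 ± 83.1 normalised CPM in plus-named and 17.8 ± 17.9 in Lin-named libraries, adjusted p 0.0161), Sdc3 (adjusted p 0.0206) and Sdc1 (adjusted p 0.0267), and the sulfatase Sulf1. Sulf1 had no count in the 3 Lin-named libraries, which makes it at least 399-fold higher in the plus-named ones against a level of 3 counts over the Lin-named group (adjusted p 0.0250). The median log2 fold change of this list was 2.62, against 0.21 over all genes. The count ran from 0 without bone 3 to 4 over the libraries left out in turn.

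The intracellular part of the pathway was counted in the same way. Of 26 tested receptor adaptors and kinases, 0 passed as higher in plus-named libraries, against 5% of all genes, and 1 as lower, against 424 of all genes (3.15%). That gene was Hras, a small GTPase of the cascade, with 109 ± 15.3 normalised CPM in plus-named and 187 ± 13.7 in Lin-named libraries (log2 fold change -0.79, SE 0.16, adjusted p 0.0334). With a library left out, 1 gene of the list passed as lower without fibrous 4, and 0 did so in the other 7 fits. Of 10 feedback inhibitors, Spry1 alone passed as higher, with 17.6 ± 9.90 in plus-named and 1.06 ± 1.53 in Lin-named libraries (4.28, SE 0.87, adjusted p 0.0325). Of 12 genes that respond to ERK, Fosl1 and Ier3 passed as higher. Fosl1 was at 0 in the 3 Lin-named libraries, so it was at least 82.9-fold higher in plus-named libraries against 3 counts over the group (adjusted p 0.0290). Etv5, a target gene of FGF signalling, had 8.13 ± 4.09 normalised CPM in plus-named and 0.499 ± 0.266 in Lin-named libraries and missed the threshold at an adjusted p of 0.0534. Leaving out libraries in turn left 0 or 1 of the feedback inhibitors and 0 or 1 of the ERK-responsive genes. Between XY9274 and L002, 251 of 13294 genes (1.89%) passed as higher in XY9274. Of the lists, 2 of 26 adaptors and kinases and 1 of 10 feedback inhibitors did so. They were the adaptor Grb2, the GTPase Nras and the phosphatase Dusp5 (log2 fold changes 1.15, 0.95 and 3.48, adjusted p 0.0470, 0.0460 and 0.0409).

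Across the 13 libraries each of the 8 members that passed the filter, all but Pdgfb, was set beside 9543 genes with a mean of at least 5 normalised CPM, by Pearson's r of log2 CPM. The points share their library and its depth, and all r are descriptions. Pdgfrb was most like Igfbp5, which encodes a binding protein of insulin-like growth factors (r = 0.981), and Lepr (0.963), with 0.965 and 0.956 over the 9 plus-named and Pos-named libraries. Fgfr3 was most like Cspg4, the NG2 proteoglycan (0.970), the sphingomyelinase gene Smpd3 (0.969) and Col16a1 (0.961). Fgfr1 was most like Colec12 (0.973), Smpd3 (0.969) and Emp2 (0.964), and Fgfr2 like Myo10 (0.980), Thbs2 (0.979) and Mme (0.963). The highest r for Pdgfra was 0.931, with Adamts4, an aggrecan-cleaving protease. Pdgfa was most like Pcolce, an enhancer of procollagen processing (0.981), Pdgfc like Fhl2 (0.966) and Fgf7 like Serpina12 (0.941), with the ligand gene Pdgfd further down at 0.912.

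Among these 8 members, the highest r over 13 libraries was 0.907, between Fgfr1 and Fgfr3, followed by 0.869 between Pdgfa and Fgfr1. The PDGF receptors were less alike, at 0.540, and Pdgfc with Fgfr2 gave the lowest value, 0.048. Over the 9 plus-named and Pos-named libraries, r was 0.851 for Fgfr1 with Fgfr3, 0.890 for Pdgfa with Fgfr1, 0.699 for the PDGF receptors and -0.10 for Pdgfc with Fgfr2.

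**Figure D5:**
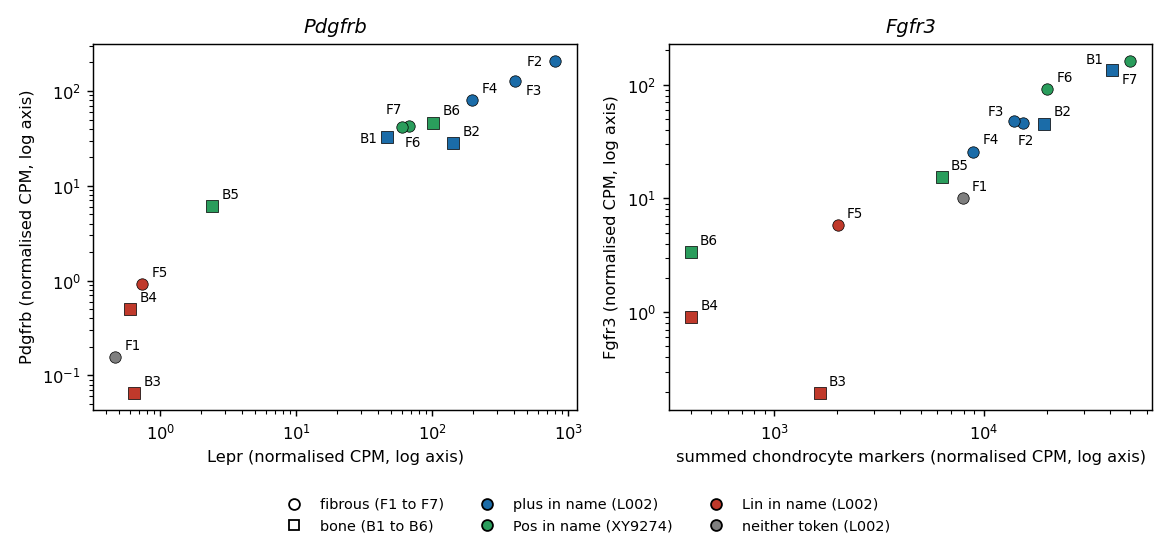
Pdgfrb against Lepr (left) and Fgfr3 against the sum of 9 chondrocyte markers (right) in the 13 libraries, all in normalised CPM on log axes, with F for fibrous and B for bone libraries. The 5 libraries under 5 normalised CPM of Lepr are the 5 lowest in Pdgfrb, and fibrous 7, bone 1 and fibrous 6 are the 3 highest on both axes for Fgfr3.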

How the data were processed

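The authors deposited a single matrix of raw gene counts, whole numbers for 23211 mouse Ensembl IDs and 13 libraries of polyA RNA (TruSeq, NovaSeq, per the labels' protocols). The submitters' processing notes name edgeR without a version and the builds mm10 and hg38. What aligned and counted the reads, with which annotation and strand setting, is not given in the sources used here, so reads on exons shared with overlapping genes cannot be assigned. All IDs matched a symbol and coordinates in GENCODE M21 (mm10).

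The main test was edgeR 4.0.16 in R 4.3.3 (TMM, filterByExpr, quasi-likelihood F test, robust), fitted with tissue and name series on 13 libraries, or with tissue and name token on 8 L002 libraries. Each fit ran on all genes, 13294 or 13450, with Benjamini-Hochberg adjustment at 0.05. The SE was taken as log2 fold change over the root of F. The common biological coefficient of variation was 0.904. DESeq2 1.42.0, limma voom 3.58.1 with sample weights, other scalings and filters, subsets and each library left out were alternatives. The fits were also run on simulated data, with scatter set well below the coefficient of variation given above. That run does not show how the fits perform at the scatter of these libraries.

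Replicate numbers are in accession order and name libraries only. Counting intervals (95%, exact Poisson) and the limit of 3 counts cover counting error only. The 9 genes, the lists and the 5 CPM limit on Lepr were chosen with earlier results of these data known. Named genes were the members, the 3 genes most alike to each (of which some are printed), up to 4 genes of each pathway list by smallest p (a subset is printed), Lepr and defining cell type markers.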

Additional observations from a re-analysis of the deposited data

Results flagged for a closer look

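A library far from the rest of its group was looked for in 26 groups of 4 to 10 libraries, and 4 were found by the gap to the nearest library as a share of the group's range. For normally distributed values chance gives about 1 in 20 such groups, and the groups here overlap, since plus-named libraries are also fibrous or bone libraries. Pdgfb in fibrous 6, at 1.67 normalised CPM, was separated from the other 6 fibrous libraries by 0.816 of the range. Fgfr2 in bone 1, at 87.8 normalised CPM, was separated from the other bone libraries by 0.814 of the range. Fgfr3 in bone 1, at 135 normalised CPM, stood apart both among bone libraries (0.666) and among plus-named libraries (0.802).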

How the results depend on the processing

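No paired analysis was possible because no fibrous and bone libraries of one name series share a number in their labels. Between plus-named and Lin-named libraries, bone 2 with bone 4 and fibrous 2 with fibrous 5 share a name token, which the labels do not call a shared animal. With that token as a replicate block in place of tissue, a fit added after seeing the data, edgeR called 0 genes and 2095 of 13450 had an unadjusted p under 0.05. The 8 members stayed above 0, Pdgfrb at 7.04 (SE 0.75, adjusted p 0.107), in a fit with 1 residual degree of freedom. After tissue and name were taken out, the residual correlation over genes was -0.147 and -0.386 within these pairs. Pairs without a shared token ran from -0.739 (bone 1 with bone 2) to 0.437 (bone 1 with fibrous 5). The check therefore cannot show whether libraries that share a token are independent. Between fibrous and bone libraries, 0 genes passed in the edgeR and voom alternatives, DESeq2 called 169, and no member passed under any of them. Fgfr3 turned negative in L002 alone (-0.78), without the libraries low in Lepr (-0.047), without bone 5 (-0.13) and without bone 6 (-0.21), and was 1.70 without bone 1. Fgf7 turned negative in XY9274 alone (-1.38), without Lin-named libraries (-0.078) and without the libraries low in Lepr (-0.24). Between plus-named and Lin-named libraries, 1097 genes became 3495 with DESeq2, 566 with voom and 138 to 992 with a library left out, over which Pdgfra ran from -0.40 (without fibrous 5) to 11.95 and Pdgfc from -1.60 (without bone 2) to 1.69. Between XY9274 and L002, 287 genes became 1982 with DESeq2, 32 without the libraries low in Lepr and 87 (without fibrous 6) to 470 (without bone 1) with a library left out. In that comparison Pdgfrb, at -0.03, was -1.09 without bone 6 and above 0 without any of 7 others. It was 0.27 without bone 1 or fibrous 2, 0.12 without bone 2, 0.07 without fibrous 3, 0.23 without fibrous 6, 0.24 without fibrous 7 and 0.22 without bone 5. With a library left out, Pdgfra ran from -0.59 (without bone 6) to 0.71, Fgfr2 from -0.91 to 1.36 (without bone 1) and Fgfr3 from -0.013 (without fibrous 7) to 1.45. The interaction count was 0 with edgeR and 25 with DESeq2. With DESeq2, 2171 of 12838 genes (16.9%) passed as higher in plus-named libraries. Among them were 3 of 5 proteases, 10 of 19 heparan sulfate genes, 3 of 10 feedback inhibitors and 8 of 12 ERK-responsive genes. So were 4 of 26 adaptors or kinases and 2 of 2 other PDGF genes. With voom, 233 of 13450 genes (1.73%) passed as higher. They held 1 of 5 proteases, 0 of 19 heparan sulfate genes, 0 of 10 feedback inhibitors and 1 of 12 ERK-responsive genes. The cause of these shifts was not tested. Depth limits Pdgfb and many Lin-named values, since Fgf7, Fgfr2 and Pdgfrb rest there on 0 to 15 counts a library, Fgfr3 and Pdgfa on 3 to 9 in bone 3 and 4, and Pdgfra on 0 in fibrous 5 and bone 4.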
